A study of Mus musculus with 503 samples.

Results

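Known marker genes of adventitial fibroblasts were followed through single perivascular cells of the mouse spinal cord: *Pi16*, *Dpp4*, *Cd34*, *Ly6a*, *Clec3b*, *Dpt*, *Col14a1* and *Hmcn2*. They are 8 of the 56701 gene rows of the count table, and all 8 had counts. The genes were put together because they separated tdTomato-EGFP+ from tdTomato+EGFP+ fibroblasts in earlier work on the same cells. Their levels and their differences between the sorted populations are therefore given as descriptions.

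Adventitial fibroblasts sit in the outer coat of larger vessels and in connective tissue sheaths of many organs. Those that carry Pi16 and Dpp4 are often described as a reservoir population with progenitor features, from which more specialised fibroblasts are thought to arise, and they are rich in secreted proteins that bind collagen and elastic fibres. In the central nervous system, fibroblasts lie around arterioles and venules and in the meninges, where they are separated from capillaries, which carry pericytes instead. After a crush of the cord, fibroblasts fill the lesion core with fibrotic matrix.

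All cells carried the genotype GLAST-CreERT2;R26R-tdTomato;Pdgfrb-eGFP. Every cell is labelled as female, whereas the study's reporting summary speaks of mice of either sex in the sequencing experiments, and the label was not checked. Tamoxifen switches tdTomato on in cells in which the GLAST gene (*Slc1a3*, a glutamate transporter) is active, and EGFP marks cells that use *Pdgfrb*, the receptor gene of pericytes, vascular smooth muscle cells and fibroblasts. EGFP+ cells with and without tdTomato were sorted into wells from uninjured cord or from the crush segment 3 days after spinal cord injury (SCI), the outer meninges having been peeled off, and were sequenced with Smart-seq3, a full-length RNA method. Sort and injury together define 4 groups. The time of 3 days stands on every injured cell's label, whereas 5 days is written in the design text, so the label was used. A GLAST-active cell in which Cre did not act is sorted as tdTomato-EGFP+. The number of animals and their ages are not in the labels, so a group counts as a single sample. Cells are not replicates, no p-value or standard error was taken from them, and the differences have no check by replicates.

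Of 503 labelled cells, 468 were kept, and 34 of the removed cells were left out for the endothelial gene *Pecam1*. A kept cell counted as a fibroblast at 200 or more counts per 1000000 (CPM) of *Col1a1*, the gene of the type I collagen chain. The highest cell below that limit was at 169 CPM and the lowest above it at 305 CPM. In a cell of under 5000 counts a single *Col1a1* count is past the limit. Of the fibroblasts, 12 had under 5000 counts, and 10 of these were injured tdTomato+EGFP+ cells of plate 215. This gave 179 fibroblasts. In uninjured cord, 27 were tdTomato+EGFP+, or 19.7% of the kept cells of that group (exact binomial 95% interval 13.4 to 27.4), and 9 were tdTomato-EGFP+, or 8.49% (3.96 to 15.5). After injury, 83 tdTomato+EGFP+ fibroblasts came from plate 211 and 31 from plate 215, together 93.4% of their group (87.5 to 97.1), and 29 were tdTomato-EGFP+, or 28.2% (19.7 to 37.9). The median fibroblast had 280806, 182555, 282774 and 210237 counts in this order, and the 31 injured tdTomato+EGFP+ fibroblasts of plate 215 had a median of 16998. The fibroblast label held against genes it was not based on: *Pdgfra* was at 461 CPM in fibroblasts and 1.54 CPM in the other 289 kept cells, *Serpinf1* at 1430 and 1.82 CPM, and *Dcn* at 7201 and 444.2 CPM. *Pecam1* was at 0.973 CPM and *Ptprc*, a gene of all leukocytes, at 0.849 CPM in fibroblasts. Values below are CPM of counts summed over the cells of a group, with exact Poisson 95% intervals, and the difference of 2 groups is that of log2(CPM + 1). All intervals and limits cover counting error only, and reads copied by PCR are not independent molecules. Each plate carried both sorted populations of a single treatment (209 and 213 without injury, 211 and 215 with it). Plate values are given as a spread between plates, and whether the plates held different animals is not in the labels.

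*Pi16*, *Dpp4*, *Cd34* and *Ly6a* encode proteins of the cell surface. *Pi16* (peptidase inhibitor 16, chromosome 17, 29317680 to 29330593, plus strand, GRCm38) is the gene that names the population. In uninjured cord, *Pi16* was at 3104 CPM (3028 to 3181) in tdTomato-EGFP+ fibroblasts and at 542 CPM (526 to 557) in tdTomato+EGFP+ fibroblasts. Single tdTomato-EGFP+ fibroblasts ran from 0 over a median of 2030 to 4353 CPM, and 8 of 9 had a count. Single tdTomato+EGFP+ fibroblasts ran from 0 over a median of 256 to 2828 CPM, and 19 of 27 had a count. The cells of the 2 sorted populations overlapped, while the plate values (2694 and 3533 against 1218 and 213 CPM) did not. *Pi16* was thus also well detected in tdTomato+EGFP+ fibroblasts, and the difference was 2.52 on the log2 scale (1.14 and 4.04 on the plates).

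*Dpp4* (CD26, a serine dipeptidyl peptidase that trims N-terminal dipeptides from chemokines and hormones, chromosome 2, 62330073 to 62412231, minus strand) separated the sorted populations by the largest step of the 8 genes. Uninjured tdTomato-EGFP+ fibroblasts were at 465 CPM (436 to 496), with a median cell at 220 CPM, a highest cell at 951 CPM and a count in 7 of 9. Uninjured tdTomato+EGFP+ fibroblasts held 3 counts in all, 1 in each of 3 of 27 cells, or 0.34 CPM. The linear ratio was 1369 with an exact counting interval of 467 to 6650. After each cell was thinned to 20000 counts, *Dpp4* was found in 7 of 8 tdTomato-EGFP+ fibroblasts and in 0 of 26 tdTomato+EGFP+ ones, which allows a share of up to 11.5% by a limit of 3 counts (exact upper bound 13.2%). The plates gave log2 differences of 8.63 and 8.21, although a single cell held 97.5% of the *Dpp4* counts of the 3 tdTomato-EGFP+ fibroblasts of plate 213.

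Since *Dpp4* led the difference, the 250 bases before its RefSeq start are shown, at chr2:62412232-62412481 of GRCm38.p6 on the minus strand. Letters in capitals mark its matches to motifs searched on both strands, which were TATAAA, the core of a TATA box, then TGANTCA, bound by AP-1, and last GGAATG, bound by TEAD factors.

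Dpp4: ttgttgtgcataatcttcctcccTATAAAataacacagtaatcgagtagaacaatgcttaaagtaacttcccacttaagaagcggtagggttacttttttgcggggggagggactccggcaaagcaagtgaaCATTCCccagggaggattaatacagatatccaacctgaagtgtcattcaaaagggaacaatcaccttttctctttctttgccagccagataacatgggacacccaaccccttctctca

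TATAAA begins 227 bases before the start, and GGAATG is read on the opposite strand, so that it appears as CATTCC. The window holds no TGANTCA. Of 32851 mouse promoter windows of the same length, 12.4% hold TATAAA, while 6.75% hold TGANTCA and 12.6% hold GGAATG. A match is a description of these letters and not a bound site. The promoter table also covers *Pi16*, *Cd34*, *Dpt* and *Hmcn2* and not *Clec3b*, *Col14a1* and *Ly6a*.

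*Cd34* (a sialomucin of endothelial cells, blood progenitors and many fibroblasts, chromosome 1, 194938819 to 194961279, plus strand) was at 2084 CPM (2022 to 2147) in uninjured tdTomato-EGFP+ fibroblasts and at 511 CPM (496 to 526) in tdTomato+EGFP+ ones. All 9 tdTomato-EGFP+ fibroblasts had a count, from 132.6 over a median of 1388 to 3574 CPM. The 27 tdTomato+EGFP+ fibroblasts ran from 0 over a median of 70.1 to 3783 CPM. The cells overlapped, with a higher middle in tdTomato-EGFP+ fibroblasts, and the difference was 2.03 (3.59 and 1.37). *Ly6a* (Sca-1, a small GPI-anchored protein used to sort mouse progenitors, chromosome 15, 74994877 to 74998031, minus strand) was at 1234 CPM (1187 to 1283) against 27.9 CPM (24.5 to 31.6), a difference of 5.42 (4.34 and 7.01). Single cells had medians of 1218 and 2.04 CPM and highest values of 2456 and 708 CPM, and that one tdTomato+EGFP+ cell held 79.7% of the *Ly6a* counts of its group. *Ly6a* has closely similar neighbours in its gene family, so reads shared between them are an uncertainty that the deposited counts do not resolve.

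*Clec3b*, *Dpt*, *Col14a1* and *Hmcn2* encode secreted proteins of the matrix. *Clec3b* (tetranectin, a plasminogen-binding C-type lectin, chromosome 9, 123150946 to 123157432, plus strand) was the member that separated the uninjured fibroblasts least. It was at 1362 CPM (1312 to 1413) in tdTomato-EGFP+ fibroblasts and at 818 CPM (800 to 838) in their tdTomato+EGFP+ counterparts, with median cells at 1110 and 981 CPM and highest cells at 4116 and 5868 CPM. The difference of 0.73 was below 1 and had opposite signs on the plates (-0.23 and 1.48). *Dpt* (dermatopontin, which binds decorin and collagen fibrils, chromosome 1, 164796644 to 164824266, plus strand) was at 863 CPM (823 to 904) and 275 CPM (264 to 286), a difference of 1.65 (1.17 and 2.05). The *Dpt* medians ran the other way, at 57.2 CPM against 138.9 CPM in tdTomato+EGFP+ fibroblasts, and 1 cell held 55.1% of the tdTomato-EGFP+ *Dpt* counts.

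*Col14a1* (collagen XIV, a fibril-associated collagen, chromosome 15, 55307750 to 55520803, plus strand) came next to *Dpp4*. It was at 542 CPM (510 to 574) in uninjured tdTomato-EGFP+ fibroblasts, with a count in 7 of 9, a median of 309 CPM and a highest cell at 1090 CPM. In tdTomato+EGFP+ fibroblasts it was at 1.59 CPM (0.867 to 2.66), 14 counts in 4 of 27 cells, with a highest cell at 32.9 CPM. The difference was 7.71 (8.02 and 7.87), and 1 cell held 63.2% of the tdTomato-EGFP+ counts. *Hmcn2* (hemicentin 2, a large matrix protein of the fibulin superfamily, chromosome 2, 31314415 to 31460738, plus strand) was at 202 CPM (183 to 222) against 5.78 CPM (4.30 to 7.60), a difference of 4.90. It was uneven: 4 of 9 tdTomato-EGFP+ fibroblasts had a count, the highest cell at 1342 CPM held 59.2% of the counts, and the plate differences were 6.02 and 1.23.

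**Figure D1:**
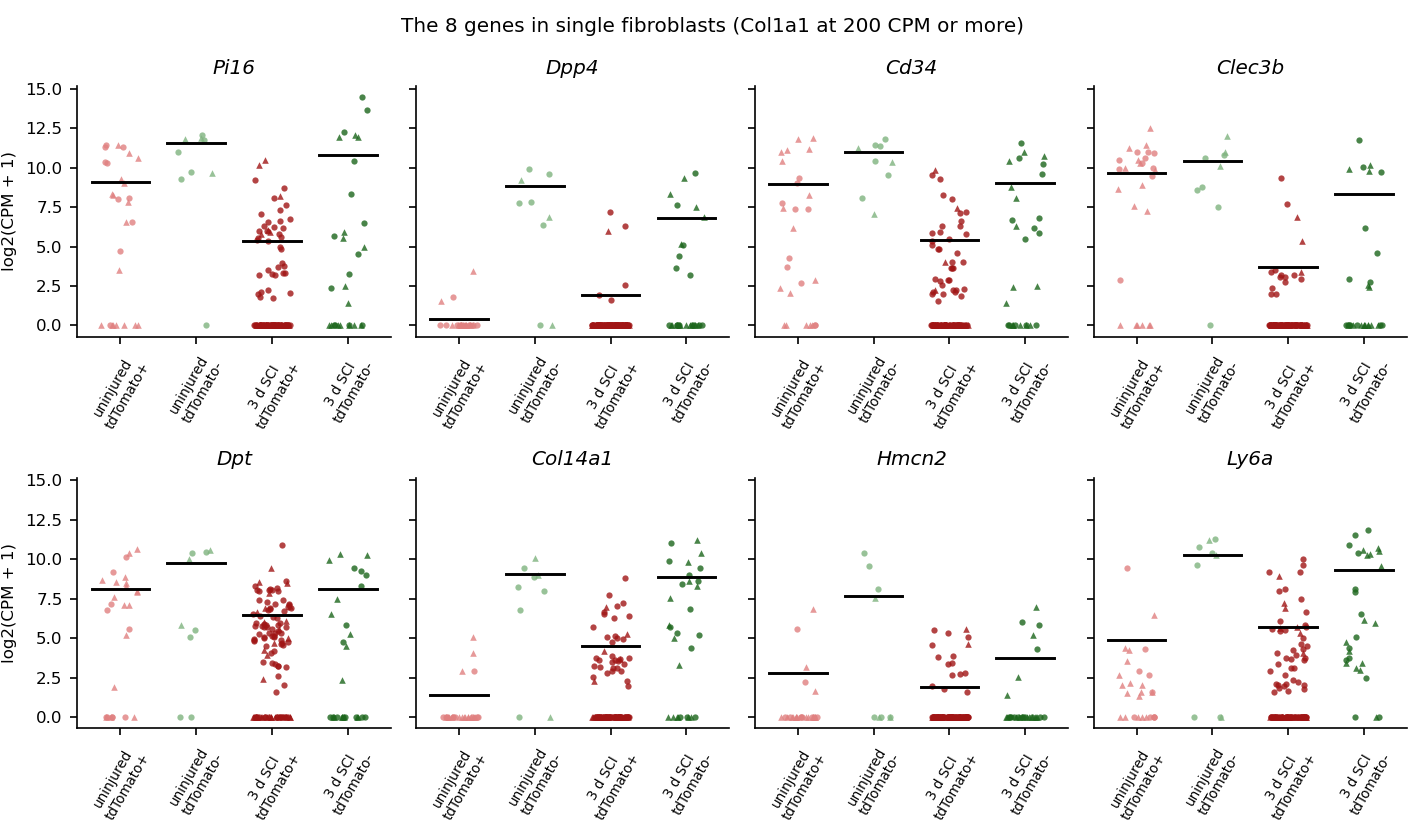
Level of each of the 8 genes in each fibroblast (log2(CPM + 1), y axis) by sorted population and treatment (x axis). Circles are cells of the first plate and triangles cells of the second plate of each treatment, and the black line is the level of the summed counts. *Dpp4* and *Col14a1* lie at or near 0 in nearly all uninjured tdTomato+EGFP+ fibroblasts (highest cells 10.1 and 32.9 CPM), while *Pi16* and *Clec3b* reach high levels in both sorted populations of uninjured cord.

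Over the whole set, 7 of the 8 genes were higher by 1 or more in uninjured tdTomato-EGFP+ fibroblasts, against 19.2% of the 11011 genes at 10 CPM or more in either group, and the values of this contrast were known when the genes were put together. The median difference of the 8 genes was 3.71 (3.05 and 3.96 on the plates), beside -0.16 over all those genes. *Dpp4* ranked 1st and *Col14a1* 8th of 2172 genes ordered by how much higher they were in tdTomato-EGFP+ fibroblasts, *Ly6a* 51st, *Hmcn2* 66th, *Pi16* 207th, *Cd34* 314th and *Dpt* 425th, and *Clec3b* was not ranked, since its plates differed in sign. The other leading genes were *Has1*, a hyaluronan synthase, at 328 against 0.113 CPM, *Emilin2*, *Gpx3* and *Ccn5*. *Slc1a3*, the gene behind the tdTomato sort, was at 35.1 CPM in the tdTomato-EGFP+ fibroblasts, against 754 CPM.

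At 3 days after SCI, all 8 genes were higher by 1 or more in tdTomato-EGFP+ fibroblasts, against 18.9% of 10379 genes. The median difference was 4.00 (3.75 and 4.39 on the plates), beside 0.20 over all genes. *Pi16* led with 1815 CPM (1785 to 1846) against 39.8 CPM (37.6 to 42.2), a difference of 5.48 (6.40 and 2.70). The injured tdTomato-EGFP+ fibroblasts ran from 0 over a median of 8.48 to 22611 CPM, so the level rested on part of the cells: 11 of 29 were at 50 CPM or more, and 1 cell held 34.2% of the counts. Of the injured tdTomato+EGFP+ fibroblasts, 42 (36.8%) had a *Pi16* count, with a median of 0 and a highest cell at 1416 CPM.

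*Dpp4* was at 112.4 CPM (105.02 to 120.2) in injured tdTomato-EGFP+ and 2.85 CPM (2.28 to 3.53) in injured tdTomato+EGFP+ fibroblasts, a difference of 4.88. It was counted in 11 of 29 cells and in 6 (5.26%) of the other group, with highest cells at 799 and 145.3 CPM. *Cd34* differed by 3.65 (535 against 41.8 CPM) and *Ly6a* by 3.59 (641 against 52.2 CPM). *Ly6a* was the most widely detected member in injured tdTomato-EGFP+ fibroblasts, with a count in 26 of 29 cells. Among the matrix genes, *Clec3b* differed by 4.63 (317 against 11.8 CPM) and *Col14a1* by 4.35 (459 against 21.6 CPM). In injured tdTomato+EGFP+ fibroblasts 1 cell held 81.8% of the *Clec3b* counts. *Hmcn2* was low in both (12.6 and 2.79 CPM, a difference of 1.85). *Dpt* had the smallest step, 1.65 (0.66 and 2.90), from 273 against 86.4 CPM, and it was counted in 14 of 29 tdTomato-EGFP+ and 82 (71.9%) of the tdTomato+EGFP+ fibroblasts.

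Scaling by TMM factors shifted the injured comparison by -0.31 on the log2 scale. The share of higher genes among all genes past 1 was then 51.3% (52.1% with DESeq2 factors) in place of 72.4%, and all 8 genes stayed past 1 under both. *Slc1a3* was at 21.6 CPM in the tdTomato-EGFP+ fibroblasts of injured cord, against 216 CPM. The genes that led the injured contrast were *Slc47a1*, *Comp*, *Ccn5*, *Crabp2* and *Slc4a10* in tdTomato-EGFP+ fibroblasts, and *Trf*, *Spp1*, *Hsd11b1*, *A2m* and *St8sia1* in tdTomato+EGFP+ ones. *Pi16* ranked 33rd and *Dpp4* 47th of 2738.

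**Figure D2:**
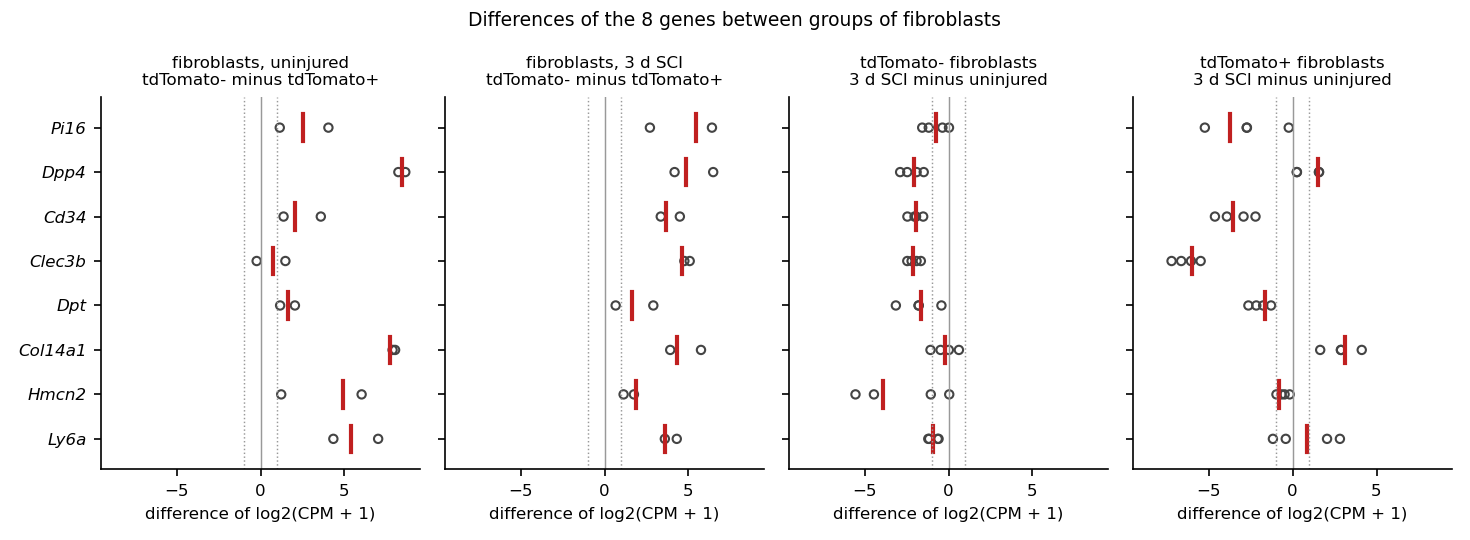
Difference of log2(CPM + 1) between groups of fibroblasts (x axis) for each of the 8 genes (y axis), between sorted populations and between treatments. The red bar is the value of the summed counts, open circles are the plates or plate pairs, and dotted lines stand at -1 and 1. In fibroblasts the tdTomato- minus tdTomato+ bars are past 1 for 7 genes in uninjured and 8 genes in injured cord, and *Clec3b* is at 0.73 in uninjured cord.

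The order of the 4 groups was the same at the top for every member: uninjured tdTomato-EGFP+ fibroblasts had the highest level of each of the 8 genes. For *Pi16*, *Clec3b*, *Col14a1* and *Hmcn2* the plate values of that group overlapped those of the next group, and for *Dpp4*, *Cd34*, *Dpt* and *Ly6a* they did not. Injured tdTomato-EGFP+ fibroblasts came second for 6 genes. For *Clec3b* (818 against 317 CPM) and *Dpt* (275 against 273 CPM), uninjured tdTomato+EGFP+ fibroblasts came second, with overlapping plates for *Dpt* and not for *Clec3b*. The lowest group was injured tdTomato+EGFP+ for 5 genes and uninjured tdTomato+EGFP+ for *Dpp4*, *Col14a1* and *Ly6a*.

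The members were then counted cell by cell, at 50 CPM or more in fibroblasts of 20000 counts or more. Uninjured tdTomato-EGFP+ fibroblasts carried a median of 7 of the 8 genes (lowest 4, highest 8, 8 cells). Uninjured tdTomato+EGFP+ fibroblasts carried a median of 3 (1 to 6, 26 cells), injured tdTomato+EGFP+ fibroblasts 1 (0 to 4, 95 cells) and injured tdTomato-EGFP+ fibroblasts 2 (0 to 8, 29 cells). The cells of the last group were spread to both ends: 6 carried none of the 8 genes and 7 carried 6 or more.

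A set of 6 or more of the 8 genes was found in 6 of 8 uninjured tdTomato-EGFP+ fibroblasts (75%, 34.9 to 96.8), 7 of 29 injured tdTomato-EGFP+ ones (24.1%, 10.3 to 43.5), 1 of 26 uninjured tdTomato+EGFP+ ones (3.85%, 0.0973 to 19.6) and 0 of 95 injured tdTomato+EGFP+ ones, which allows a share of up to 3.16% by the limit of 3 counts (exact upper bound 3.81%). The injured tdTomato-EGFP+ cells of this kind came from both plates, 4 of 14 and 3 of 15. With each cell thinned to 20000 counts the numbers were 6, 7, 0 and 0. Cells with none of *Dpp4*, *Col14a1* and *Ly6a* were 24 of 26 uninjured and 72 of 95 injured tdTomato+EGFP+ fibroblasts, and 1 of 8 uninjured and 8 of 29 injured tdTomato-EGFP+ ones.

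**Figure D3:**
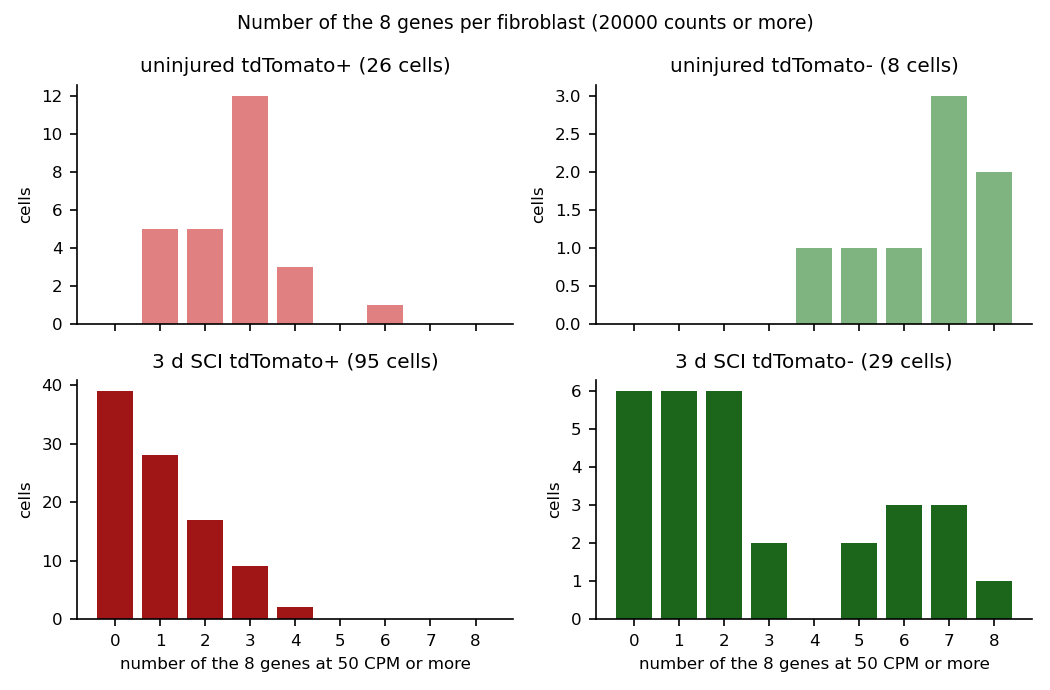
Number of fibroblasts (y axis, a separate scale in each panel) by how many of the 8 genes they carried at 50 CPM or more (x axis), for cells of 20000 counts or more. The bars lie at 4 to 8 genes in uninjured tdTomato-EGFP+ cells, at 0 to 4 in injured tdTomato+EGFP+ cells, and at both ends in injured tdTomato-EGFP+ cells.

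Which members shared a cell differed by group. In the 26 uninjured tdTomato+EGFP+ fibroblasts, all 17 with *Pi16* also had *Clec3b*, and 3 had *Clec3b* alone. *Cd34* ran against this pair: it was present with *Pi16* in 6 cells, without it in 7, and *Pi16* stood without *Cd34* in 11. Each of the 26 cells had *Clec3b* or *Cd34*, and 7 had both. In the 8 uninjured tdTomato-EGFP+ fibroblasts, all had *Pi16*, *Clec3b* and *Cd34*, 7 also had *Dpp4* and *Col14a1*, 6 *Ly6a*, 5 *Dpt* and 3 *Hmcn2*. Of the 11 injured tdTomato-EGFP+ fibroblasts with *Pi16*, 10 had *Cd34*, 10 *Col14a1*, 10 *Ly6a*, 7 *Clec3b*, 7 *Dpt*, 5 *Dpp4* and 2 *Hmcn2*. In the 17 injured tdTomato+EGFP+ fibroblasts with *Pi16*, 12 had *Dpt*, 6 *Ly6a*, 5 *Cd34*, 2 *Clec3b*, 1 *Col14a1* and 0 *Dpp4*.

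Across all 179 fibroblasts the Pearson correlation of a member with the mean of the other 7, on log2(CPM + 1), was 0.70 for *Pi16*, 0.63 for *Clec3b*, 0.59 for *Dpp4*, 0.55 for *Ly6a*, 0.55 for *Cd34*, 0.48 for *Col14a1*, 0.34 for *Dpt* and 0.30 for *Hmcn2*. The cells share plates, sorted population and depth, so these values include the differences between groups. Within the 29 injured tdTomato-EGFP+ fibroblasts the values were 0.88 for *Pi16*, 0.87 for *Clec3b* and 0.82 for *Cd34*. Within the 27 uninjured tdTomato+EGFP+ fibroblasts *Cd34* was at -0.49 and *Pi16* at 0.53.

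**Figure D4:**
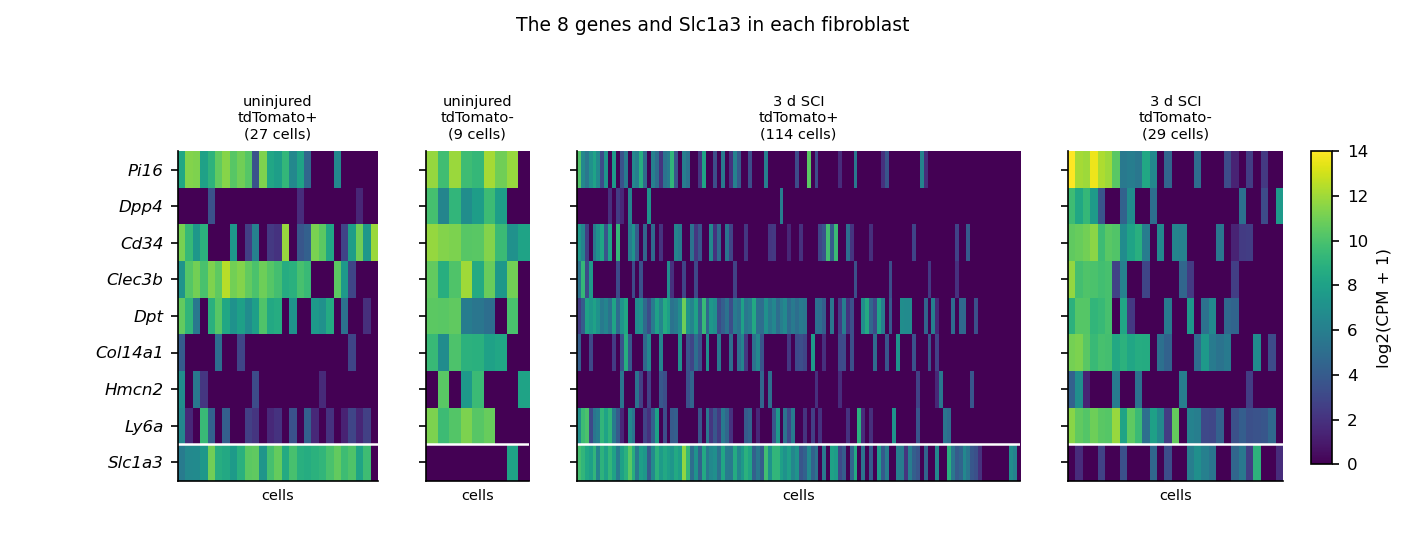
Levels of the 8 genes and of *Slc1a3* (rows, colour as log2(CPM + 1)) in each fibroblast (columns), grouped by sorted population and treatment and ordered within a group by the mean of the 8 genes. The ordering places cells with more of the 8 genes together. In injured tdTomato-EGFP+ cells *Hmcn2* is at 50 CPM or more in 3 of 29, and *Slc1a3* is at 50 CPM or more in 4 of 29 of these cells and, among cells of 20000 counts or more, in 55 of 95 injured tdTomato+EGFP+ cells.

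The 7 injured tdTomato-EGFP+ fibroblasts with 6 or more members were compared, as a description, with the other 22. Since the cells were divided by the members, the members' own levels are not a result: *Pi16* was at 6453 and 74.2 CPM. Genes that vary with the members differ by this division too, and no share of all genes stands beside it. The list values below are therefore descriptions and do not speak for a separate population. Depth was alike, with medians of 208884 and 217024 counts. The summed level of 7 general fibroblast genes was 34076 CPM in the 7 cells and 15860 CPM in the 22. Over all 29 cells this sum ran from 2150 over a median of 13793 to 96403 CPM in single cells. The sum of 6 vascular smooth muscle genes, which also mark contractile fibroblasts, was 109.3 CPM in the 7 cells and 2332 CPM in the 22. The 6 genes of dividing cells (*Mki67*, *Top2a*, *Ccnb1*, *Rrm2*, *Cdk1* and *Birc5*) summed to 17.3 CPM with a count in 4 of 7 cells, and to 778 CPM with a count in 17 of 22. The 10 genes of brain and meningeal barrier fibroblasts summed to 20.2 and 1247 CPM, and *Slc1a3* was at 1.93 and 28.9 CPM. Over all 29 cells these barrier genes summed to 912 CPM. *Aldh1a2* was at 529 CPM, *Ptgds* at 227 CPM and each other barrier gene at 34.5 CPM or less. The barrier sum of single cells ran from 0 over a median of 110.4 to 14457 CPM, and 10 of 29 reached 500 CPM. The 7 endothelial genes, *Ly6c1* among them, summed to 2276 CPM in the 7 cells and 418 CPM in the 22, and the part of endothelial RNA in this was not tested.

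The same division in uninjured tdTomato-EGFP+ fibroblasts gave 6 cells with 6 or more members and 2 with fewer. The 10 barrier genes summed to 15.96 CPM in the 6 cells and 4369 CPM in the 2, where 1 cell held all of the counts. *Slc1a3* was at 0 and 202 CPM. A single uninjured tdTomato-EGFP+ fibroblast had *Slc1a3* counts, at 265 CPM. It had *Pi16* at 3673, *Clec3b* at 2049, *Dpt* at 1017 and *Cd34* at 132.6 CPM, and no count of *Dpp4*, *Col14a1*, *Ly6a* or *Hmcn2*. In injured cord, 4 tdTomato-EGFP+ fibroblasts had *Slc1a3* at 50 CPM or more, 3 of them with *Pdgfra*, and none of the 4 carried 6 or more members. With tdTomato-EGFP+ cells that had both *Slc1a3* and *Pdgfra* left out, the median difference of the 8 genes was 3.79 in uninjured and 4.09 in injured fibroblasts.

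Uninjured tdTomato+EGFP+ fibroblasts were divided by *Clec3b* instead, again as a description. Since the division used a member whose overlap with *Pi16* and *Cd34* was already known, the levels of the members are not a result. The 20 cells with *Clec3b* at 50 CPM or more had *Pi16* at 774 CPM and *Cd34* at 222 CPM. The other 6 had *Pi16* at 0 and *Cd34* at 1184 CPM. *Lama1*, a laminin chain, was at 1207 and 1.13 CPM, *Fmod*, the collagen-binding fibromodulin, at 1538 and 3.78 CPM, and *Cemip*, which breaks down hyaluronan, at 1727 and 34.4 CPM. The GABA transporter gene *Slc6a13* was present in both (1548 and 1297 CPM). The barrier genes as a whole summed to 7315 and 1589 CPM, and not all of them are named here. No share of all genes that differ as much between these 20 and 6 cells stands beside these values. The plates were uneven, with 9 of the 20 and 1 of the 6 cells on plate 209, and the part of the plate was not tested.

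A list of 15 other genes known from Pi16-type fibroblasts was also drawn up with earlier results of these cells known. In uninjured fibroblasts 13 of 15 were higher by 1 or more in tdTomato-EGFP+ cells and 0 lower, with a median of 2.72, against 19.2% higher and 29.8% lower over all genes. The steps were largest for *Stmn4* (101.9 against 0 CPM, at least 299.9-fold at a floor of 3 counts over the group), *Pcolce2*, an enhancer of procollagen processing (708 against 6.57 CPM), and *Sema3c*, a secreted semaphorin (649 against 6.80 CPM). The elastic fibre genes *Fbn1* (1764 against 304 CPM) and *Mfap5* (1726 against 674 CPM) and the complement regulator *Cd55* (952 against 197 CPM) were also past 1. *Efemp1* (-0.94) and *Tnxb* (0.31) were not. In injured fibroblasts 10 of the 13 at 10 CPM or more were higher and 0 lower, with a median of 3.03, against 18.9% and 7.2% over all genes.

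The barrier fibroblast list was likewise drawn up with earlier results of these cells known, so its counts are descriptions. It went the other way in uninjured cord. There 8 of 9 genes at 10 CPM or more were lower and 1 higher in tdTomato-EGFP+ fibroblasts (median -4.01), against 29.8% of all genes lower. *Cemip* had no count there and 1219 CPM in tdTomato+EGFP+ fibroblasts, at least 833-fold higher at the same floor. In injured cord 3 of 9 were lower and 2 higher (median -0.39), against 7.2% lower and 18.9% higher over all genes (12.997% and 13.7% with TMM factors). Of the general fibroblast genes, *Col3a1* and *Fbln1* were higher and *Lum* and *Pdgfra* lower by 1 or more in uninjured tdTomato-EGFP+ fibroblasts, and 3 of 7 lay between.

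Other cell type lists moved with the sort as well. Of the pericyte genes, 6 of 7 were lower by 1 or more in the tdTomato-EGFP+ fibroblasts of uninjured cord (sum 239 against 1716 CPM), beside 29.8% of all genes. In injured fibroblasts 4 of 5 were higher (631 against 281 CPM), beside 18.9%, but 3 of 29 tdTomato-EGFP+ cells reached 500 CPM and the median cells were at 115.1 and 100.1 CPM. The vascular smooth muscle genes summed to 273 against 447 CPM in uninjured and 1725 against 1531 CPM in injured fibroblasts, and the endothelial genes to 1136 against 755 and 925 against 302 CPM. Dividing-cell genes summed to 0 against 11.3 CPM in uninjured and 571 against 1157 CPM in injured fibroblasts. Immune, oligodendrocyte, astrocyte and Schwann cell genes summed to between 2.72 and 85.9 CPM in every fibroblast group. The part of these cell types in the differences of the 8 genes was not tested.

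Injury was compared within each sorted population, where injury and plate cannot be told apart. The 4 plate pairs of a comparison reuse the same 2 plates of each treatment, so they are not independent of each other. In tdTomato-EGFP+ fibroblasts all 8 genes were lower at 3 days, 5 of them by 1 or more, against 21% of 10707 genes lower by 1 or more and 24.7% higher. The median of the 8 genes was -1.81 (4 plate pairs -1.72 to -1.50), beside 0.02 over all genes. *Hmcn2* had the largest difference, from 202 to 12.6 CPM (-3.90), although its plate pairs ran from -5.55 to 0.04. *Clec3b* (1362 to 317 CPM, -2.10), *Dpp4* (465 to 112.4 CPM, -2.04), *Cd34* (2084 to 535 CPM, -1.96) and *Dpt* (863 to 273 CPM, -1.66) were lower in all 4 plate pairs. *Pi16* (-0.77), *Ly6a* (-0.94) and *Col14a1* (-0.24) were within 1, and *Pi16* and *Col14a1* had plate pairs of both signs. Of the 15 other Pi16-type genes 9 were lower and 0 higher (median -1.37), and all 6 dividing-cell genes were higher by 1 or more. TMM factors shifted this comparison by 0.11, with the same number of members past 1. Fibroblasts made up 28.2% of kept tdTomato-EGFP+ cells in injured and 8.49% in uninjured cord. Among those of 20000 counts or more, the median fibroblast carried 2 members at 50 CPM or more in injured and 7 in uninjured cord. The part of a change in the make-up of this group in the differences was not tested.

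In tdTomato+EGFP+ fibroblasts the 8 genes did not run together. *Clec3b* was lower (818 to 11.8 CPM, -5.999, with plate pairs of -7.22 to -5.48), as were *Pi16* (542 to 39.8 CPM, -3.73, with pairs of -5.23 to -0.23), *Cd34* (511 to 41.8 CPM, -3.58) and *Dpt* (275 to 86.4 CPM, -1.66). *Col14a1* was higher by 3.13 (1.59 to 21.6 CPM, with plate pairs of 1.64 to 4.12). *Dpp4* went from 3 counts to 85 counts, 0.34 to 2.85 CPM, a linear ratio of 8.39 (2.78 to 41.5), and both levels are low. *Ly6a* (0.88) and *Hmcn2* (-0.84) were within 1, and the *Ly6a* plate pairs ran from -1.18 to 2.82 with 2 of each sign. The *Ly6a* difference was -0.44 without plate 213, -0.49 with no filter on cells and -1.13 with *Col1a1* at 100 CPM or more, so its direction was not settled. *Dpp4* and *Hmcn2* were under 10 CPM in both groups and thus outside the genes behind the background shares. Over all 8 members, 4 were lower by 1 or more, against 36.2% of 11122 genes, and 2 higher, against 16.3%, and the median was -1.25 (-1.67 to -0.36) beside -0.52 over all genes.

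This last comparison moved with scaling. TMM factors shifted it by 0.70 and DESeq2 factors by 0.71, so that 57.2% and 57.5% of the genes past 1 were higher in place of 31.1%, and 3 members were higher and 3 lower under both, with *Dpt* no longer past 1 and *Ly6a* past it. *Clec3b*, *Pi16* and *Cd34* stayed lower by over 1 under both. Fibroblasts also made up more of this sort after injury (93.4% against 19.7% of kept cells), and the part of that in the differences was not tested. Of the 15 other Pi16-type genes, 6 of 10 were lower and 2 higher (median -1.84), and 7 of 9 barrier genes were lower and 2 higher (median -3.26).

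Outside the fibroblasts the 8 genes parted. Over all groups, fibroblasts held 99.6% of the counts of kept cells for *Pi16*, 98.3% for *Clec3b* and 93.1% for *Dpt*, but 23.8% for *Hmcn2*, 21.4% for *Cd34* and 11.6% for *Ly6a*. The share of *Pi16* was between 98.9% and 100% and that of *Clec3b* between 97.6% and 100% in every group. For *Col14a1* and *Dpp4* it depended on the group. Fibroblasts held 4.23% of the *Col14a1* counts of uninjured tdTomato+EGFP+ cells, where the other cells were at 10.7 CPM and the fibroblasts at 1.59 CPM, and 78.2% to 100% in the other groups. For *Dpp4* the share was 0.221% in uninjured tdTomato+EGFP+ cells, 52.05% in uninjured tdTomato-EGFP+ cells, 97.7% in injured tdTomato+EGFP+ cells and 88.1% in the injured cells without tdTomato. The other 289 kept cells were divided at 500 CPM of the 7 endothelial genes, a limit set after the values were seen. Treatment was uneven between the 2 sets: of the 223 cells at or above the limit, 3 tdTomato+EGFP+ and 29 tdTomato-EGFP+ cells were injured, while of the 66 below it, 1 tdTomato+EGFP+ and 15 tdTomato-EGFP+ cells were uninjured. The part of injury in the differences between these sets was not tested. In the 223 cells at or above it, *Ly6a* was at 1203 CPM (1194 to 1212) with a count in 92.8% of cells, *Cd34* at 867 CPM (860 to 875) with a count in 90.1%, and *Dpp4* at 40.4 CPM (38.8 to 42.0) with a count in 34.5%. In the 66 cells below it, *Ly6a* was at 20.8 CPM, *Cd34* at 68.8 CPM and *Dpp4* had no count, which allows up to 0.194 CPM. *Pi16* was at 1.32 and 1.29 CPM and *Clec3b* at 3.58 and 0.71 CPM in the same cells.

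*Hmcn2* was spread differently, at 27.6 and 29.5 CPM in these 2 sets of cells and at 13.3 CPM over all fibroblasts. The 34 cells removed for *Pecam1* had *Ly6a* at 1447, *Cd34* at 1276, *Col14a1* at 71.3, *Dpp4* at 69.9, *Clec3b* at 35.7 and *Pi16* at 7.48 CPM. Of the 7 endothelial genes, fibroblasts were low in *Pecam1*, which the cell filter used (0.973 CPM against 536 CPM in all other kept cells), *Cldn5* (3.56 against 1798 CPM), *Slco1a4* (5.57 against 1228 CPM) and *Flt1* (18.5 against 984 CPM). They held *Cdh5* (134.5 against 177 CPM), *Itm2a* (299 against 1708 CPM) and *Ly6c1* (56.1 against 884 CPM). *Ly6c1*, a further member of the Ly6 family, was at 532 CPM in uninjured tdTomato-EGFP+ fibroblasts.

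This division shows in the comparison of the sorted populations over all kept cells, where fibroblast number and level per cell cannot be told apart. In uninjured cord only *Hmcn2* (58.8 against 8.15 CPM, 2.71) and *Col14a1* (52.9 against 8.62 CPM, 2.49) were higher by 1 or more in tdTomato-EGFP+ cells, 2 of 8 against 4.62% of 11198 genes, and none was lower by 1 or more, against 4.8%. *Pi16* (0.91) and *Dpp4* (0.93) were just within 1, *Cd34* (0.11) and *Ly6a* (0.05) were near 0, and *Clec3b* (-0.87) and *Dpt* (-0.28) were below it, with a median of 0.51. Without the cells at 500 CPM or more of endothelial genes that were no fibroblasts, the median was 2.40. In injured cord 7 of 8 were higher, against 20.2% of 10631 genes, and none was lower by 1 or more, against 5.38%, with a median of 2.67 (3.03 without those cells), and *Dpt* was at -0.02. TMM factors shifted the injured comparison of all cells by -0.38, so that 57.2% (58.04% with DESeq2 factors) of the genes past 1 were higher in place of 78.99%, with 7 members still past 1.

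The 5 genes whose pattern over the 179 fibroblasts was most like the mean of the 8 genes, among 7192 considered, were *Ly6c1* (Pearson correlation 0.78), *Ogn* (0.73), *Aspn* (0.70), *Sema3c* (0.70) and *Wnt9a* (0.70). *Ogn* and *Aspn* encode small leucine-rich proteins of the matrix. *Aspn* was at 1023 CPM in uninjured and 293 CPM in injured tdTomato-EGFP+ fibroblasts, and at 22.9 and 1.91 CPM in tdTomato+EGFP+ ones. *Wnt9a* was at 250 and 260 CPM in tdTomato-EGFP+ fibroblasts and at 20.8 and 1.04 CPM in tdTomato+EGFP+ ones. The cells share plates, sorted population and depth, and the likeness is a description.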

How the data were processed

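The values are counts as deposited by the authors, whole numbers for each gene in each cell, made on mm10 per the submitters' processing notes. The sources used here do not give the aligner, the annotation or the meaning of a count (read or UMI). Of 1968 cell columns 503 matched the labels, and the other 1465 were not used. The 92 ERCC spike-in rows (0.0314% of counts) were left out. No pair of columns was identical.

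Cells needed 200 genes and under 20% mitochondrial counts. Cells were dropped where *Gfap* or *Ptprc* (0 cells), or *Pecam1* above *Pdgfrb* (34 cells), exceeded 1 on the ln(1 + counts per 10000) scale. The study's upper limit of 1200 genes, which leaves 33 of the 468 kept cells, was an alternative. Cells were sorted singly and doublets were not called. Of the 289 other kept cells, 223 carried 500 CPM or more of the endothelial genes, and whether these were doublets was not tested. Counts were summed by group and scaled to CPM, with a pseudocount of 1 for log2 values. A gene entered the background share at 10 CPM or more in either group. For shares, cells were thinned to 20000 counts with a fixed seed. Fibroblasts below that depth had no thinned value: 19 injured tdTomato+EGFP+ ones and 1 of each uninjured sort.

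The genes named are the 8 members, *Slc1a3*, *Pdgfrb*, *Col1a1*, genes of fixed lists, the 5 most like the mean of the members (20 CPM or more, a count in 10% or more of fibroblasts), and the 5 largest differences each way between sorted populations (50 CPM or more, a count in 20% or more of the higher group's cells, the same sign on both plates). Not every gene of these lists is named. The members and the lists were chosen with earlier results of these data known. Alternatives covered scaling, pseudocount, cell filters, plates, the highest cell and the fibroblast limit. Gene positions are from the GENCODE annotation of GRCm38 and the promoter from RefSeq (GRCm38.p6). Python 3.11.15, numpy 2.4.6, pandas 2.3.3, scipy 1.17.1, R 4.3.3, edgeR 4.0.16 (TMM factors) and DESeq2 1.42.0 (size factors) were used, and the calculation was tested on simulated data.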

Additional observations from a re-analysis of the deposited data

Results flagged for a closer look

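*Dpp4* differed in opposite directions between injured and uninjured cord in the 2 sorted populations of fibroblasts. Injury and plate cannot be told apart here. The injury effect in tdTomato-EGFP+ fibroblasts minus that in tdTomato+EGFP+ fibroblasts was -3.56 on the log2 scale. All 4 plate pairs were lower after injury in tdTomato-EGFP+ fibroblasts (-2.89 to -1.48) and all 4 were higher in tdTomato+EGFP+ fibroblasts (0.25 to 1.58). The 4 pairs reuse the same 2 plates of each treatment, so they are not independent of each other. On plate 215 the injured tdTomato+EGFP+ fibroblasts held 1 *Dpp4* count. The second effect rests on 3 counts in uninjured and 85 counts in injured cells, 60% of them in 1 cell. The difference was not tested.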

How the results depend on the processing

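Of the recomputed medians and counts of members, 83 stayed within the spread between plates (medians) or within 1.5 times (counts of members), 21 moved further and 0 changed direction. Of 624 values of single genes, 529 and 95 did so, and 0 past 1 changed direction. The number of members past 1 between the sorted populations of fibroblasts stayed at 7 to 8 of 8. In uninjured fibroblasts the median of 3.71 was 3.05 without plate 209 and 3.00 with *Col1a1* at 100 CPM or more. In injured fibroblasts the median of 4.00 was 3.39 with a pseudocount of 10 CPM. Over all uninjured cells the median of 0.51 was 0.19 as a mean over cells, 0.44 with a pseudocount of 10 CPM, 0.29 with no filter on cells, 0 with up to 1200 genes, 0.39 without plate 213, 0.37 without the highest cell of each gene, 0.40 without tdTomato-EGFP+ cells that had both *Slc1a3* and *Pdgfra*, and 2.40 without cells with endothelial transcripts, an alternative chosen after seeing the data. Over all injured cells the median of 2.67 was 3.73 without plate 211. For injury in tdTomato-EGFP+ fibroblasts the median of -1.81 was -1.69 with TMM factors, -1.92 without the highest cell and -1.97 with *Col1a1* at 100 CPM or more, and it ran from -2.09 (without plate 215) to -1.32 (without plate 209), with -1.50 without plate 213 and -1.55 without plate 211. For injury in tdTomato+EGFP+ fibroblasts the median of -1.25 was -0.62 with TMM and -0.61 with DESeq2 factors. The cause was not tested. The limit of 1200 genes was run only over all uninjured cells, since elsewhere it left under 5 cells in a group. The sorted populations were compared within plates as values. No paired analysis was possible because the replicate numbers pair no animals and no test was made.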
